A study of Mus musculus with 205 samples.

Results

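The experiment described here asked what a self-cleaving ribozyme in the editor's mRNA does to long-term mitochondrial base editing in mouse fibroblasts. Its members were the stable Tandem-HHR lines, in which a hammerhead ribozyme (HHR) ends the transcript of the editor. There were 4 such lines, targeting Nd3, Cytb, CoII and Atp6, each sampled on days 28, 35 and 42 after transfection, which gave 12 of the 205 samples of the series. The rule that picks them uses the sample descriptions and no measured value. It names 16 entries, of which those described as day 49 match no sample record and entered no test. Each of the 12 samples was set beside the stable Tandem line for the same gene on the same day, which carried the same editor without the ribozyme (12 samples). A stable line with an empty Tandem vector, without an editor, was sampled on the same days (3 samples). Transient Tandem-HHR and transient Tandem transfections of the same editors, taken on day 7 with 3 replicates per construct, formed a second comparison.

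All of these are DddA-derived cytosine base editors (DdCBEs). Such an editor is made of a pair of TALE proteins that each bind mtDNA beside the target and carry an inactive part of the bacterial deaminase DddA. Where both bind, the parts come together and turn C into U, which is copied as T, and a uracil glycosylase inhibitor keeps the U from being removed. A cell holds many copies of mtDNA, so the edited share of copies (heteroplasmy) can take any value up to complete replacement. In the Tandem format both monomers come from a single mRNA and are separated by a T2A ribosome-skipping peptide. In the Tandem-HHR format the ribozyme at the 3′ end of that mRNA cuts it, which lowers how much editor is made. For the stable lines, the vector was inserted by Flp recombinase at a docking site of Flp-In-3T3 cells, expressed from an EF-1α promoter and kept by hygromycin selection. The transient samples were NIH/3T3 cells that received plasmids with a CMV promoter and were sorted for a fluorescent marker on the plasmid. With 1 line per construct and format, the ribozyme and any other difference between a pair of lines cannot be told apart in a single gene, and the days of a line are repeated measurements of it, not replicates.

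The target of each editor is a TGA codon, which mitochondria read as Trp and which becomes the stop codon TAA. The edited C lies on the strand opposite to the reference sequence, so the change is read as G to A. The target sites are shown because every on-target value below is the edited share of reads at the capital G. They come from the RefSeq mtDNA of GRCm38, plus strand, 5′ to 3′, each of 29 bases and inside the coding sequence of its gene.
Nd3: tctagttgcattctGactcccccaaataa
Cytb: cgtaaattacgggtGactaatccgatata
CoII: catagggcaccaatGatactgaagctacg
Atp6: ttctttccaacactGactagttaaactta
Nd3, a small membrane subunit of complex I, spans chrM:9459-9806, and its window is chrM:9512-9540. The change is G9526A in codon 23 of 115, after 19.1% of the codons. Cytb encodes the cytochrome b of complex III and spans chrM:14145-15288. Its window is chrM:14360-14388 and the change G14374A in codon 77 of 381, after 19.9% of the codons. CoII, the complex IV subunit that receives electrons from cytochrome c, is annotated as COX2 at chrM:7013-7696. Its window is chrM:7309-7337 and the change G7323A in codon 104 of 227, after 45.4% of the codons. A second TGA codon, 106, lies in the same window, with its G 6 bases downstream of the target. Atp6, the subunit a of ATP synthase that forms the proton path, spans chrM:7927-8607. Its window is chrM:8055-8083 and the change G8069A in codon 48 of 226, after 20.8% of the codons.

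All stable and transient samples used here were sequenced in 1 run. The mean coverage of mtDNA was 156 to 4858 in the stable Tandem-HHR samples (median 481), 132 to 5912 in the stable Tandem samples (median 372) and 103 to 388 in the stable empty-vector samples. The depth at each target was not given, so no counting interval could be set on an on-target percentage. The error shown is the SD over 3 days of a line, or over 3 replicates of a transient group.

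The 4 stable Tandem-HHR lines edited from 53.4% to 90.5% of their mtDNA copies at the target, against 90.3% to 99.8% in the stable Tandem lines. In all 4 genes the highest day of the ribozyme line lay below the lowest day of the matched Tandem line. The gap was widest for Nd3 and narrowest for Cytb.

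The Nd3 ribozyme line had 53.4%, 63.1% and 55.4% edited copies on days 28, 35 and 42, against 95.5%, 98.8% and 97.2% in the Nd3 Tandem line. Its mean was 57.3% ± 5.17, against 97.2% ± 1.66 in the Tandem line (SD over 3 days), a difference of -39.9 percentage points (-42.1 to -35.6 by day). This was the ribozyme line that stayed furthest from complete replacement, with 42.7% of its copies unedited, against 2.85% in the Tandem line. The CoII ribozyme line had 74.5%, 76.5% and 78.4%, against 93.5%, 90.6% and 91.6% in the CoII Tandem line. Its mean was 76.5% ± 1.98, against 91.9% ± 1.48, a difference of -15.4 points (-19.0 to -13.1). The nearest days of the CoII pair were 12.1 points apart.

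The Atp6 ribozyme line had 85.3%, 83.3% and 90.5%, against 96.6%, 97.7% and 99.8% in the Atp6 Tandem line. Its mean was 86.4% ± 3.70, against 98.0% ± 1.63, a difference of -11.6 points (-14.4 to -9.29). Its day 42 sample was the highest of all 12 ribozyme samples and slightly above the lowest of the 12 Tandem samples, which was Cytb on day 42. The Cytb ribozyme line had 86.0%, 82.0% and 87.1%, against 95.5%, 95.7% and 90.3% in the Cytb Tandem line. Its mean was 85.0% ± 2.69, against 93.8% ± 3.06, a difference of -8.81 points (-13.7 to -3.21). On day 42 the Cytb pair was therefore separated by 3.21 points, the least of the 12 pairs.

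**Figure D1:**
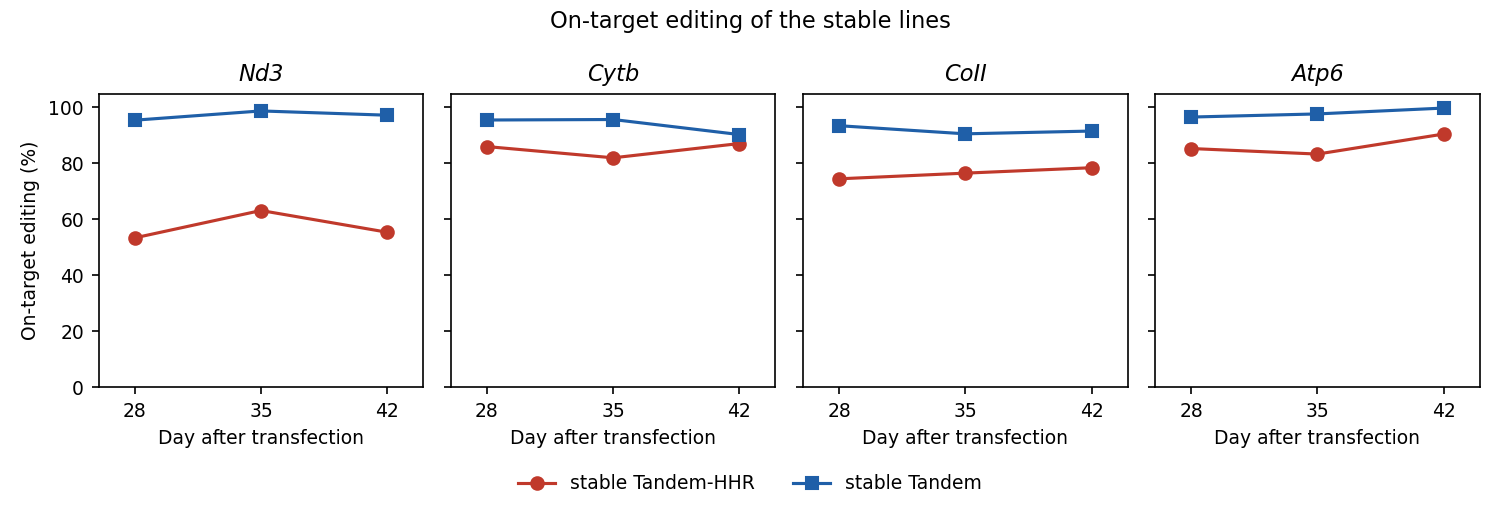
On-target editing (%) of the stable Tandem-HHR lines (red circles) and the stable Tandem lines (blue squares) on days 28, 35 and 42, with a panel for each targeted gene and 1 sample per point. The red points lie below the blue ones on every day, from 53.4% to 63.1% for Nd3, while for Cytb on day 42 the points are 3.21 points apart.

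Set against the matched Tandem line, the ribozyme line held 59.0% of the on-target level for Nd3, 83.2% for CoII, 88.1% for Atp6 and 90.6% for Cytb. Because the Tandem lines were close to complete editing, the unedited remainder separated the pairs more widely. It was 15 times that of the Tandem line for Nd3 (42.7% against 2.85%, 10.3 to 29.8 times by day), 2.89 times for CoII (23.5% against 8.13%, 2.49 to 3.91 times) and 2.43 times for Cytb (15% against 6.16%, 1.33 to 4.18 times). For Atp6 it was 6.87 times (13.6% against 1.98%), but 4.29, 7.23 and 45.0 times on the single days, since the Tandem line had only 0.211% unedited copies on day 42, and 10.4 times without day 28. Over the 4 constructs the on-target difference averaged -18.9 points (SD 14.2, n = 4 constructs), lower with the ribozyme in 4 of 4 (exact sign-flip permutation test, two-sided, p = 0.13, adjusted p = 0.20 over 8 tests). With 4 constructs this test can give no smaller p, since 2 of the 16 sign patterns are always this extreme. Without Nd3 the average was -11.9 points.

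Among the ribozyme lines themselves, on-target editing was highest for Atp6 and Cytb, lower for CoII and lowest for Nd3. Atp6 and Cytb differed by 1.35 points between their means and their ranges over days overlapped. Cytb and CoII differed by 8.56 points and CoII and Nd3 by 19.2 points, and neither of these pairs of ranges overlapped. CoII was the third and Nd3 the last on each of the 3 days. The Nd3 line thus had the lowest level with the ribozyme although its Tandem partner, at 97.2%, was the second highest of the Tandem lines. With 1 line per gene these differences between genes could not be tested.

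Heteroplasmy of the ribozyme lines stayed within 3.97 to 9.79 points over the 3 days, and only the CoII line moved in a single direction. CoII changed by 2.03 points between days 28 and 35 and by a further 1.93 points between days 35 and 42. Nd3 changed by 9.79 points up to day 35 and by -7.77 points after it, so that the widest movement of the 4 lines left a net difference of 2.02 points. Cytb changed by -4.02 and then 5.11 points, and Atp6 by -1.98 and then 7.17 points. Day 42 exceeded day 28 by 2.02 points in Nd3, 1.09 in Cytb, 3.97 in CoII and 5.19 in Atp6, a mean of 3.06 points (SD 1.86, n = 4 constructs, higher in 4 of 4; exact sign-flip permutation test, p = 0.13, adjusted p = 0.20). Entries described as day 49 in the tables, which match no sample record and entered no test, list 52.0% for the Nd3, 86.2% for the Cytb, 79.6% for the CoII and 64.4% for the Atp6 ribozyme line. Set against day 28 these are differences of -1.36, 0.171, 5.14 and -20.9 points. Set against day 42 they are -3.37, -0.914, 1.17 and -26.1 points, in the same order of lines. Among the samples up to day 42, day 42 exceeded day 28 in 4 of 4 lines. Atp6 had the highest mean of these samples, although Cytb was higher on day 28. The day 49 entries show neither, as Nd3 and Atp6 lay below day 28 and Cytb was the highest line. For Nd3, Cytb and Atp6 the net change up to day 42 was smaller than a step between neighbouring days of the same line. Mean coverage differed between these samples too, being 3436 to 4301 on day 42 in the Nd3, Cytb and Atp6 lines and 301 to 592 on their earlier days. In the CoII line it was 4858, 156 and 1087 on days 28, 35 and 42, so both of its small steps rest on the shallowest ribozyme sample. The part of coverage in the day-to-day differences was not tested.

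The Tandem lines moved by 1.78 points in Nd3, -5.20 in Cytb, -1.91 in CoII and 3.21 in Atp6 between days 28 and 42. The ribozyme lines therefore exceeded their partners in this change by 0.237 points for Nd3, 6.29 for Cytb, 5.88 for CoII and 1.97 for Atp6, a mean of 3.59 points (SD 2.96, n = 4 constructs; exact sign-flip permutation test, p = 0.13, adjusted p = 0.20). A Tandem line above 90% has little room left to move. On the logit scale, which allows for this, the mean turned to -0.34 with 2 of 4 constructs positive (p = 0.875 by the same exact test). The Atp6 Tandem line, with only 0.211% unedited copies on day 42, ranged over 2.82 logit units across its days. The other Tandem lines ranged over 0.400 (CoII), 0.869 (Cytb) and 1.335 (Nd3). A logit mean without Atp6 was not computed. Up to day 42, a narrower mean gap was thus seen in percentage points and not on the logit scale. The day 49 entries list 52.0% with the ribozyme against 99.1% without it for Nd3, and 64.4% against 99.8% for Atp6. These gaps are wider than on day 28, while those for Cytb (86.2% against 95.3%) and CoII (79.6% against 90.8%) are narrower.

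Off-target change was measured as the average C:G-to-T:A frequency over the mtDNA. The empty-vector line, which shows the background of cells, PCR and sequencing, had 0.159%, 0.175% and 0.170% on days 28, 35 and 42 (mean 0.168% ± 0.00799, SD over 3 days). The 12 ribozyme samples had 0.173% to 0.232%, each above the empty vector of its day, and 11 of 12 were above the highest empty-vector sample. The 12 Tandem samples had 0.187% to 0.472%. The ribozyme lines exceeded the same-day empty vector by 0.0179 points for Nd3, 0.0607 for Cytb, 0.0176 for CoII and 0.0341 for Atp6, a mean of 0.0326 points (SD 0.0203, n = 4 constructs, higher in 4 of 4; exact sign-flip permutation test, p = 0.13, adjusted p = 0.20). All 4 lines share the same 3 empty-vector samples, and that of day 42 had a mean coverage of only 103. The day 49 entries, which entered no test, list 0.176% for the Nd3 ribozyme line, below the 0.180% of their empty vector. The other ribozyme entries of that day lie above it.

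Atp6 gave the largest off-target difference between the formats. The Atp6 ribozyme line had 0.195%, 0.189% and 0.223%, against 0.377%, 0.441% and 0.472% in the Atp6 Tandem line. This was 1.08 to 1.31 times the same-day empty vector with the ribozyme and 2.36 to 2.77 times without it, a difference of -0.228 points (-0.251 to -0.182 by day). The Atp6 Tandem line was the only stable line far above the empty vector. Its excess grew with each sampling day, while that of the ribozyme line was lowest on day 35.

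The CoII ribozyme line had 0.197%, 0.185% and 0.176%, against 0.206%, 0.203% and 0.222% in the CoII Tandem line. The difference was -0.0244 points (-0.0462 to -0.00889), and the 2 ranges did not overlap. By day 42 the CoII ribozyme sample was at 1.03 times the empty vector, the closest of the 12. The Nd3 ribozyme line had 0.173%, 0.198% and 0.187%, against 0.190%, 0.195% and 0.207% in the Nd3 Tandem line. The difference was -0.0114 points, from -0.0195 to 0.00306, so that the ribozyme line was lower on 2 days and higher on day 35. For Nd3 the ranges overlapped and the mean difference was smaller than its SD over days (0.0126).

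Cytb ran the other way. The Cytb ribozyme line had 0.223%, 0.232% and 0.232%, against 0.212%, 0.187% and 0.198% in the Cytb Tandem line. It was higher on 3 of 3 days without overlap, by 0.0301 points on average (0.0116 to 0.0454), and reached 1.33 to 1.40 times the same-day empty vector, against 1.07 to 1.33 times in the Tandem line. It had the highest off-target level of the 4 ribozyme lines on every day and did not overlap the next line, Atp6. The ranges of Atp6, Nd3 and CoII overlapped from each neighbour to the next.

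**Figure D2:**
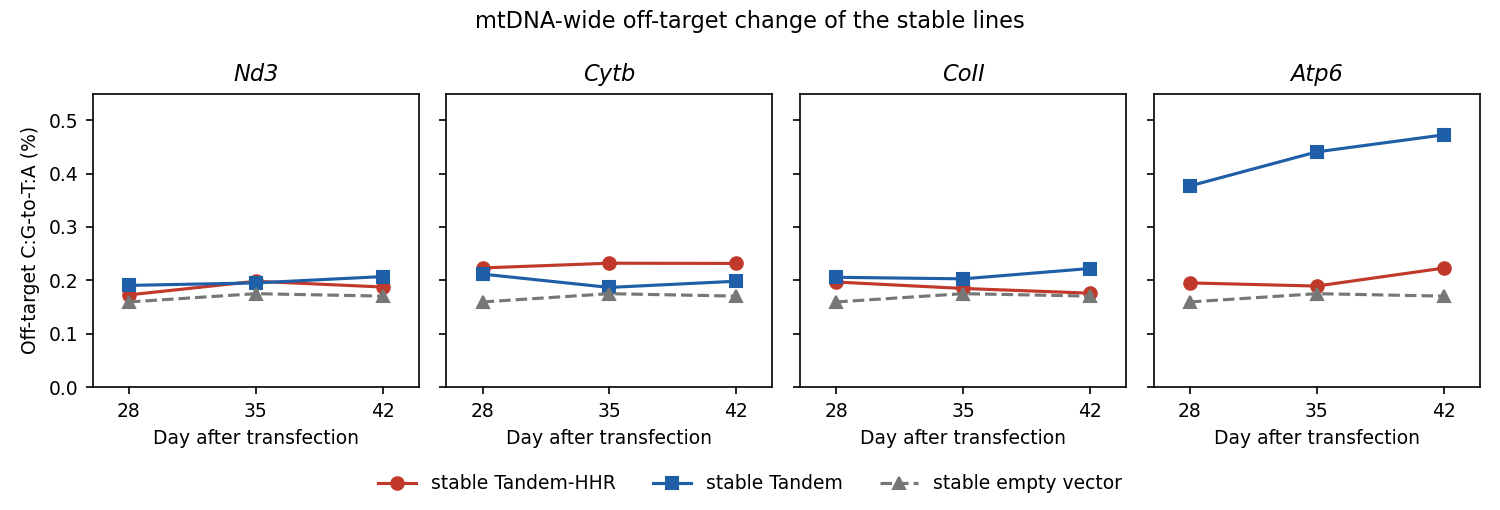
Average off-target C:G-to-T:A frequency over the mtDNA (%) of the stable Tandem-HHR lines (red circles), the stable Tandem lines (blue squares) and the stable empty-vector line (grey triangles, the same in each panel) on days 28, 35 and 42, 1 sample per point. The Atp6 Tandem line lies at 0.377% to 0.472%, far above its ribozyme partner, while for Cytb the ribozyme line lies above the Tandem line.

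Over the 4 constructs the off-target difference averaged -0.0583 points (SD 0.115, n = 4 constructs, lower with the ribozyme in 3 of 4; exact sign-flip permutation test, p = 0.50, adjusted p = 0.571). As a log2 ratio of the folds over the same-day empty vector it averaged -0.29 (SD 0.56), with -0.09 for Nd3, 0.21 for Cytb, -0.18 for CoII and -1.08 for Atp6 (same test, p = 0.50, adjusted p = 0.571). Nearly all of the average came from Atp6, and without it the difference was -0.00189 points. A lower off-target level with the ribozyme across constructs was therefore not shown in the stable lines.

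On-target and off-target losses did not go together from gene to gene. The Atp6 ribozyme line kept 88.1% of the on-target level of its Tandem partner and 13.0% of its off-target excess over the empty vector. CoII kept 83.2% on target and 41.9% of the excess, and Nd3 kept 59.0% and 61.0%. Cytb kept 90.6% on target with 198% of the excess. The kept excess varied widely by day, being 5.37% to 17.4% for Atp6, 10.7% to 80.8% for CoII, 42.8% to 115% for Nd3 and 122% to 488% for Cytb, and without day 28 it was 19.2% for CoII and 299% for Cytb. Whether the target itself enters the off-target average was not stated. If it did, averaged over the 5989 C:G pairs of the mtDNA, it would add 0.00957 points to the Nd3 and 0.0128 points to the CoII ribozyme line, which is a large part of the excess of 0.0179 and 0.0176 points in these lines. It would add 0.0142 points for Cytb and 0.0144 points for Atp6, against an excess of 0.0607 and 0.0341 points. With this amount subtracted from every sample, the kept excess was 63.6% for Nd3, 312% for Cytb, 18% for CoII and 8.03% for Atp6. The CoII ribozyme samples of days 35 and 42 then lay below the same-day empty vector (-0.00299 and -0.00758 points), and the other ribozyme samples stayed above it.

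**Figure D3:**
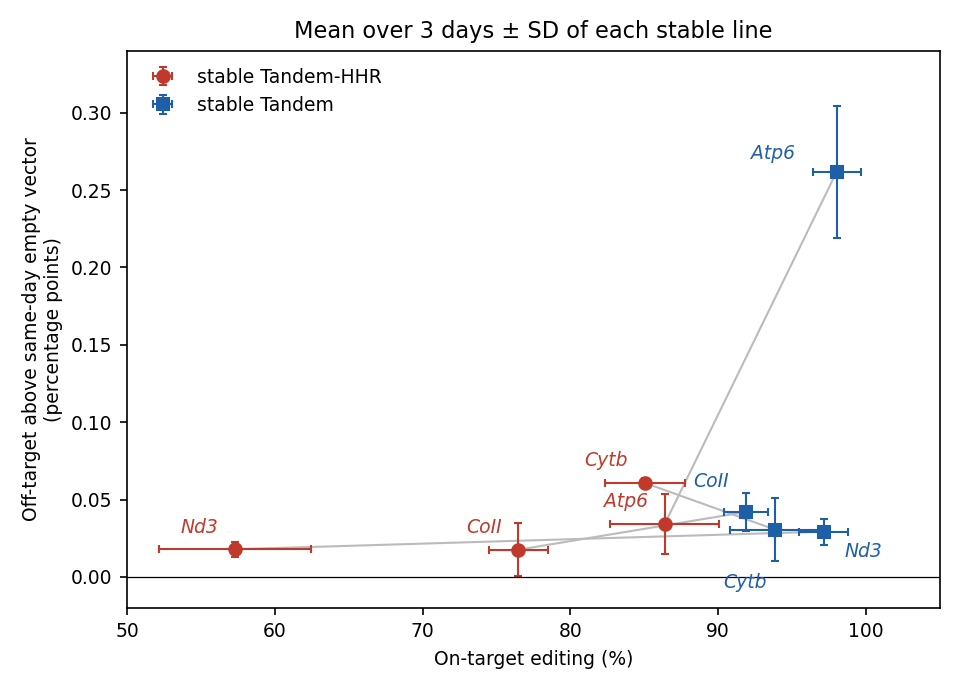
Off-target excess over the same-day empty vector (percentage points, vertical axis) against on-target editing (%, horizontal axis, starting at 50%) for each stable Tandem-HHR line (red circles) and stable Tandem line (blue squares), as mean ± SD over 3 days, with a grey line joining the pair for each gene. Atp6 differs mainly on the vertical axis, Nd3 mainly on the horizontal axis, and for Cytb the ribozyme point is the higher one.

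The transient samples show the same editors 7 days after plasmid transfection. The stable Nd3 ribozyme line, at 57.3% ± 5.17, was 33.1 points above the transient Nd3 Tandem-HHR samples, which had 29.5%, 20.9% and 22.0% (mean 24.2% ± 4.68, SD, n = 3). The stable CoII ribozyme line was 47.2 points above its transient samples, which had 31.3%, 25.5% and 31.1% (29.3% ± 3.32). The stable Atp6 line was 56.1 points above transient samples with 35.5%, 23.3% and 32.0% (30.3% ± 6.31), and the stable Cytb line 62.0 points above transient samples with 23.5%, 18.6% and 26.9% (23.0% ± 4.20). Stable expression thus gave 2.37 times the transient ribozyme level for Nd3, 2.61 times for CoII, 2.85 times for Atp6 and 3.70 times for Cytb. The mean difference was 49.6 points (SD 12.6, n = 4 constructs, higher in 4 of 4; exact sign-flip permutation test, p = 0.13, adjusted p = 0.20). Promoter, selection, parental cells and time all differ between these formats and cannot be told apart.

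The order of the gene means differed between the formats, but the transient order of Cytb and Nd3 was not resolved. Their transient ribozyme ranges overlapped (18.6% to 26.9% for Cytb and 20.9% to 29.5% for Nd3). The transient ribozyme means spanned 23.0% to 30.3% over the 4 genes, while the stable ribozyme means spanned 57.3% to 86.4%. Cytb, the lowest of the transient means, was the second highest of the stable lines, and Nd3, slightly above it at 24.2% in transient cells, was the lowest of the stable lines.

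On target, the ribozyme line differed from the Tandem line by -39.9 points for Nd3 in the stable format, against -12.4 points in transient cells (24.2% ± 4.68 with and 36.6% ± 7.11 without the ribozyme). The transient Nd3 ranges overlapped (20.9% to 29.5% with and 28.5% to 41.5% without the ribozyme), while those of Cytb, CoII and Atp6 did not. For CoII the difference was -15.4 points in the stable lines, against -14.9 points in transient cells (29.3% ± 3.32 and 44.2% ± 11.1). For Atp6 it was -11.6 points, against -20.2 points (30.3% ± 6.31 and 50.5% ± 11), and for Cytb -8.81 points, against -15.1 points (23.0% ± 4.20 and 38.1% ± 7.19). The highest transient Atp6 Tandem replicate, at 61.4%, had a mean coverage of only 148. The stable minus the transient difference was thus -27.4 points for Nd3, -0.48 for CoII, 8.55 for Atp6 and 6.26 for Cytb, a mean of -3.27 points with 2 constructs in each direction (SD 16.5, n = 4 constructs; exact sign-flip permutation test, p = 0.875, adjusted p = 0.875). Without Nd3 this mean was 4.78 points. On the logit scale the difference was negative in 4 of 4 constructs, with a mean of -1.35 (p = 0.13 by the same exact test). The relative share kept with the ribozyme was 60.0% to 66.3% in transient cells for the 4 genes, against 59.0% to 90.6% in stable lines.

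Off target, the stable ribozyme lines lay close to the transient ribozyme samples except for Cytb. The transient Tandem-HHR means were 0.170% ± 0.0142 for Nd3, 0.166% ± 0.00974 for Cytb, 0.180% ± 0.00660 for CoII and 0.188% ± 0.00457 for Atp6 (SD, n = 3 each), beside 0.157% ± 0.00334 in the transient empty Tandem vector (SD, n = 3). The stable means were 0.0157, 0.0629, 0.00533 and 0.0139 points higher in that order of genes, and the stable and transient ranges overlapped for Nd3, CoII and Atp6 but not for Cytb. Transient Tandem-HHR samples were below the transient Tandem samples for all 4 genes, Cytb included, without overlap. The transient Cytb values were 0.155%, 0.174% and 0.170% with the ribozyme, against 0.204%, 0.179% and 0.199% without it.

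**Figure D4:**
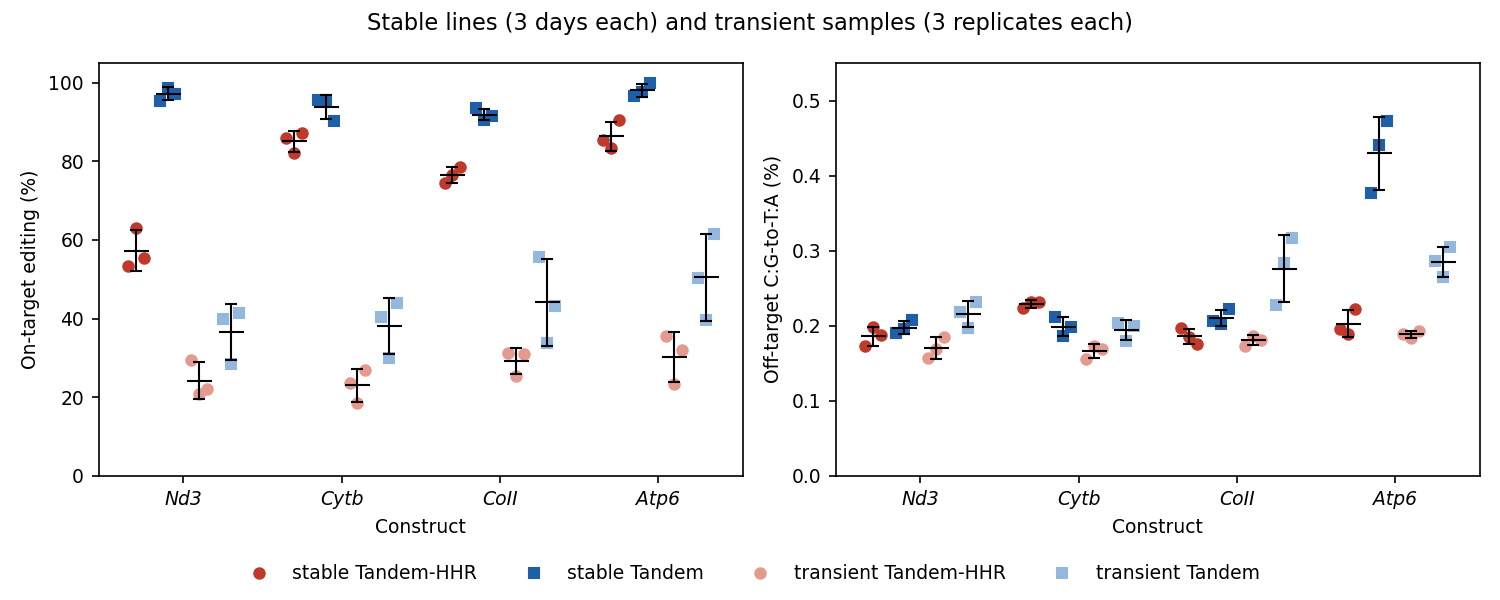
On-target editing (%, left) and average off-target C:G-to-T:A frequency (%, right) for each targeted gene in stable Tandem-HHR lines (dark red circles), stable Tandem lines (dark blue squares), transient Tandem-HHR samples (light red circles) and transient Tandem samples (light blue squares). Points are 3 days of a stable line or 3 transient replicates and black bars mean ± SD. Every stable ribozyme point lies above all transient points of its gene on the left, and on the right the stable Cytb ribozyme line lies above the other Cytb groups.

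Compared with the transient Tandem format, which lacks the ribozyme, the stable ribozyme lines were higher on target for all 4 genes without overlap, by 20.7 points for Nd3, 47.0 for Cytb, 32.3 for CoII and 35.9 for Atp6. Their off-target level was lower without overlap for CoII (0.186% ± 0.0105, against 0.276% ± 0.0451) and Atp6 (0.202% ± 0.0180, against 0.285% ± 0.0199). For Nd3 the ranges overlapped (0.186% ± 0.0128, against 0.215% ± 0.0172). For Cytb the stable ribozyme line was the higher one without overlap (0.229% ± 0.00499, against 0.194% ± 0.0131).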

How the data were processed

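Total DNA was amplified over the mtDNA as 2 long-range products that overlap, tagmented with Nextera XT and sequenced in pairs; the authors then trimmed reads with Trim Galore, mapped them with Bowtie2 to the mtDNA of GRCm38 and counted bases with samtools and VarScan. The percent values, as deposited by the authors, are the edited share at the target (on target) and the average C:G-to-T:A frequency over the mtDNA (off target). Coverage, as deposited, is the mean depth of a sample without normalization. PCR and sequencing errors enter the off-target average, so each value was set beside the empty vector of the same day and run.

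Values were joined to samples by sample name. Of the entries read, 12 match no sample record and entered no test: 9 described as day 49 and 3 of a transient empty vector. Those 3 are of another run and had at most 0.0348% off target, at a mean coverage of up to 58972. Why their background is lower was not tested, and the folds over the empty vector given here refer to the run used. Days were averaged per line, and the 4 constructs were the units of an exact two-sided sign-flip test (16 sign patterns), with Benjamini-Hochberg adjustment over 8 tests. In the 8 main results no value was filtered, and none was transformed except for the log2 fold over the same-day empty vector. The logit scale and a minimum mean coverage of 200 were used in alternatives only. Tables were computed with pandas 2.3.3 and numpy 2.4.6 in Python 3.11.15, and plots were drawn with matplotlib 3.10.9. All 4 constructs were named with every value. The rule for the members uses sample descriptions only, but this rule, the tests and the alternatives were all set with earlier results of these data known. Alternatives covered single days, medians, the logit scale, coverage, the empty vector used, subtraction of the target and leaving out days, constructs or replicates.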

Additional observations from a re-analysis of the deposited data

Results flagged for a closer look

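The Atp6 Tandem line had an off-target mean of 0.43% over 3 days, far from the other Tandem lines, which lay between 0.197% and 0.21%. Its gap to the nearest of them was 0.946 of the range of the 4 lines, above the limit of Dixon's test for 4 values. Of 7 sets of 4 values examined in this way this was the only such value. Chance gives about 1 in 20 for a single set, and therefore more often a flag somewhere among 7 sets. Its ribozyme partner had 0.202%, within the range of the ribozyme lines.

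The off-target difference of the ribozyme line from its Tandem partner was 0.0301 points for Cytb, positive on 3 of 3 days, against -0.0244 points for CoII and -0.228 points for Atp6, each negative on 3 of 3 days. For Cytb it was 0.0301 points in the stable lines and -0.0282 points in the transient samples, again without overlap between the groups compared. These differences between constructs and between formats were not tested.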

How the results depend on the processing

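The 8 results over constructs were recomputed under 77 alternatives. With 4 constructs none could pass the threshold of 0.05, so only directions and sizes are compared. Among the alternatives, 5 equal the reported value by construction (the slope over evenly spaced days, the mean empty vector and the replicate block), and where all 4 constructs share a sign, leaving out a construct cannot turn it, so the number that kept a direction is no measure of stability. The 2 that turned were the drift difference between ribozyme and Tandem lines on the logit scale (-0.34) and the stable minus transient ribozyme difference without Nd3 (4.78 points). Leaving out constructs, days or transient replicates in turn gave -22.3 to -11.9 points for the on-target difference (lowest size without Nd3), -0.0878 to -0.00189 points for the off-target difference and -0.45 to -0.02 for its log2 fold (both smallest without Atp6), 0.0232 to 0.0376 points over the empty vector, 2.36 to 3.72 points for the drift, 2.70 to 4.71 points for the drift difference, 45.5 to 55.1 points for stable over transient ribozyme samples and -7.21 to 4.78 points for the difference of differences. For single constructs, the Nd3 off-target difference was 0.00306 points on day 35 alone. The stable lines were matched by gene and day and carry no replicate number. With the transient samples taken by replicate number as a replicate block, the stable minus transient difference was -3.27 points as before, and the 12 transient differences ranged from -29.4 to -7.52 points. Replicate 2 was the lowest on target in 8 of 8 transient groups. This block, the transient empty vectors and the target-subtracted fold were added after the values of these tables had been read. Mean coverage was below 200 in 1 ribozyme, 1 Tandem and 1 empty-vector sample of the stable lines, which limits their percentages most. Replicate 3 of the transient Atp6 Tandem samples was below 200 too (148).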

Other observations

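The deposited tables also hold entries described as day 49 that match no sample record here and entered no test. Beside the on-target values given for the ribozyme lines, those listed for the Tandem format are 99.1% for Nd3, 95.3% for Cytb, 90.8% for CoII and 99.8% for Atp6. The Atp6 ribozyme entry has a mean coverage of 4036. The off-target values listed with the ribozyme are 0.176% for Nd3, 0.245% for Cytb, 0.210% for CoII and 0.224% for Atp6, against 0.2%, 0.171%, 0.214% and 0.488% for the Tandem format and 0.180% for the empty vector.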
